A study of Homo sapiens with 41 samples.

Results

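Some genes were read at a clear level in tumours of the drug-resistant melanoma line A375R and were close to silent in tumours of its drug-sensitive parent A375. They were chosen from the deposited read tables by 2 thresholds. Values of each library were scaled to RPM, the reads of a gene per 1000000 reads of its library, over the 21375 gene symbols that both tumour tables hold, and a gene was taken when its mean was under 1 RPM over the 8 A375 tumour libraries and at least 10 over the 6 libraries labelled Ronly. Of the 21375 symbols, 7937 met the first condition, 8262 met the second and 53 met both. IL24 was left out with all symbols that begin with COL, IL, IFI or KCN, which leaves 52 genes. The difference between A375R and A375 tumours is therefore how the genes were found, and it is described without a test.

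The human melanoma lines used were A375, Colo800 and UACC62, all driven by mutant BRAF, the kinase that vemurafenib inhibits. H3122 is a human lung adenocarcinoma line driven by the ALK kinase, which crizotinib inhibits. The series holds 41 samples in 15 groups, and its groups set drug against vehicle in sensitive cells, in their tumours and in resistant tumours of 2 kinds. A375R tumours were grown in mice in 2 kinds, which the titles call SR and Ronly, each under vemurafenib (10 doses of 75 mg/kg) or vehicle (n = 3 each). With the growth protocol, Ronly reads as A375R cells alone and SR as A375R mixed with sensitive A375 cells, but no label spells either out. A375 tumours received the same vemurafenib course or vehicle (n = 4 each). RNA of all tumours was ribosome-bound RNA, pulled down through GFP beads. The titles of SR and Ronly tumours join the name A375R to RPL10a, a ribosomal protein, which reads as a tag in the A375R cells. No label says outright which cells of an SR tumour carry the tag. Cultures gave whole RNA: A375 under vehicle, or 6 h or 48 h of 0.1 µM vemurafenib (n = 3 each), Colo800 and UACC62 under 48 h of 1 µM vemurafenib or vehicle (n = 2 each), and H3122 under 48 h of 300 nM crizotinib or vehicle (n = 2 each). No A375R culture was analysed here.

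Melanoma cells that escape BRAF inhibitors are known to switch between states: pigment-cell genes are lost or gained, and genes of other lineages, such as keratins, neural genes and germline genes, can be switched on. Genes of the germline that are silenced in most adult tissues and return in tumours are called cancer-testis genes, and many lie on the X chromosome.

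Depth ran from 26884205 to 42843612 reads in A375R tumours, from 8063754 to 25467614 in A375 tumours and from 9633599 to 14858024 in culture. The shallowest A375 tumour library can show a gene of 1 read as 0.125 RPM, so levels under 1 rest on few reads. No label says that the libraries of a group came from separate animals or cultures, and the p-values then describe only how far these libraries scatter, which may be technical. Levels in RPM are not divided by gene length and are compared for 1 gene at a time. In bulk RNA, fewer cells of a type and less RNA per cell cannot be told apart. Of 14 leukocyte markers, summed levels were 124 to 230 RPM in SR, 119 to 266 in Ronly and 44.0 to 64.6 in A375 tumours, and CD68 made up nearly all of it, while PTPRC, the marker shared by all leukocytes, averaged 0.0295, 0.0334 and 0.0469. Of the pigment-cell genes, MLANA averaged 0.0406 RPM in SR, 0.0397 in Ronly and 0.193 in A375 tumours, so this marker of melanocytes was close to absent. SOX10, a transcription factor of the same lineage, averaged 15.1 RPM in SR, 4.19 in Ronly and 245 in A375 tumours, and its part in the values of SR tumours was not tested.

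The 52 genes were of several kinds, a division made after their values were seen. There were 28 coding genes of a single locus, 5 noncoding RNAs, 10 genes or pseudogenes with a near-identical copy elsewhere, and 9 genes that share their locus with a joined neighbour, so that a read can fit more than 1 gene. RefSeq matched 51 of the 52, 7 of them through an older symbol or a gene ID, and CBWD3 was not matched. By chromosome, 5 of the 52 (9.62%) lie on each of 1, 10 and 19, against 9.98%, 3.83% and 6.77% of the shared symbols. Another 6 (11.5%) lie on X, against 4.1%. Of these 6, SPANXC, CT45A1 and CT45A3 are cancer-testis genes, APLN encodes the peptide ligand apelin, and PGAM4 and RPS26P11 are copies of genes elsewhere. In all 52, every Ronly library lay above every A375 tumour library, which the choice of the genes nearly fixes. Each of the 6 Ronly libraries was at 10 or more for 37 genes, and each of the 8 A375 tumour libraries was under 1 for 32. Just inside the upper threshold were NOG (10.04 RPM), C18orf32 (10.2) and ANKRD1 (10.7), and just outside it SH2D5 (9.88), ITGBL1 (9.77) and CCL3 (9.19). At the lower threshold PTPRN (0.994), KRT81 (0.965) and TMEFF2 (0.960) were inside, and MPP4 (1.09), WNT7A (1.11) and CSNK2A1P (1.14) were outside.

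**Figure D1:**
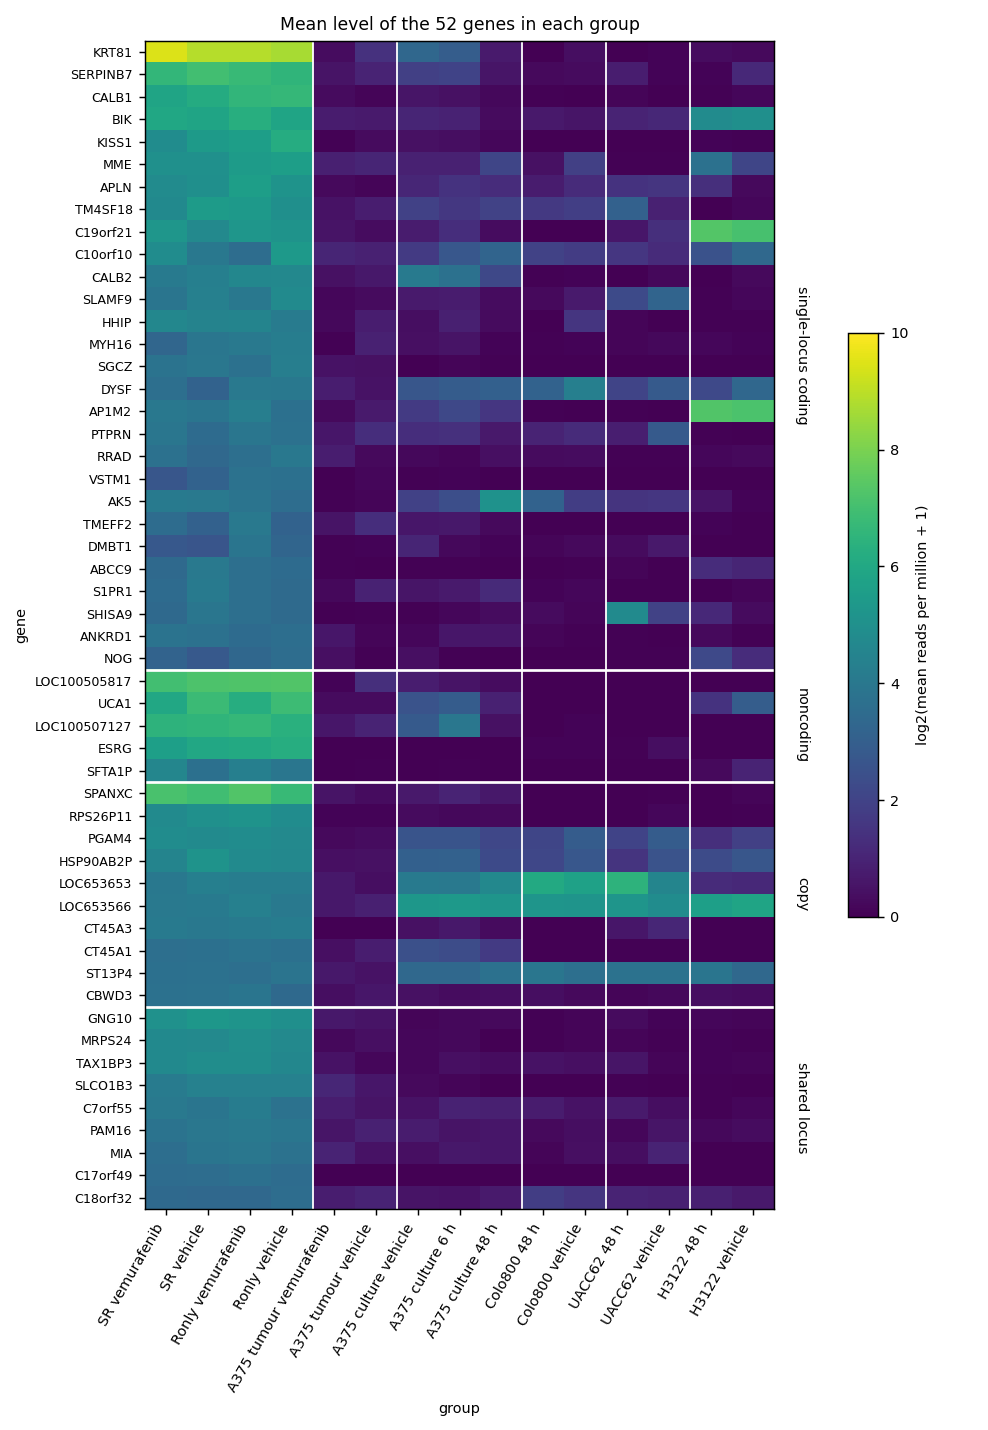
Mean level of the 52 genes (rows, in the 4 kinds, each sorted by Ronly mean) in the 15 groups (columns). Colour gives log2 of the mean RPM plus 1. The 4 A375R columns at the left are lighter throughout, the 2 A375 tumour columns are dark, and culture columns are light for some genes, such as LOC653566 in every line and C19orf21 and AP1M2 in H3122.

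The promoters of 6 of these genes are shown because the results below turn on them: C10orf10, TMEFF2 and C19orf21 changed under drug in A375R tumours, and KISS1, SPANXC and SERPINB7 were far above 10 RPM in every A375R library. Each is the 300 bases around the first start listed by RefSeq on GRCh38.p14, 5′ to 3′ on the gene's strand, and capitals mark each CG pair, the site of DNA methylation. C10orf10 (now DEPP1) is at chr10:44978760-44979059 (- strand), TMEFF2 at chr2:192194884-192195183 (- strand), C19orf21 (now MISP) at chr19:750862-751161 (+ strand), KISS1 at chr1:204196442-204196741 (- strand), SPANXC at chrX:141242468-141242767 (- strand) and SERPINB7 at chr18:63752807-63753106 (+ strand).
C10orf10: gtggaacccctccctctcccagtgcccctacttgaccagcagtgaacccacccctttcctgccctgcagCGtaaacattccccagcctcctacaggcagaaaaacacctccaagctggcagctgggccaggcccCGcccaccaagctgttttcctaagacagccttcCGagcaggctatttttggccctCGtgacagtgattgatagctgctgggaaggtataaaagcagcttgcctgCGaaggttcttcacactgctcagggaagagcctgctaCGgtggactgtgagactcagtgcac
TMEFF2: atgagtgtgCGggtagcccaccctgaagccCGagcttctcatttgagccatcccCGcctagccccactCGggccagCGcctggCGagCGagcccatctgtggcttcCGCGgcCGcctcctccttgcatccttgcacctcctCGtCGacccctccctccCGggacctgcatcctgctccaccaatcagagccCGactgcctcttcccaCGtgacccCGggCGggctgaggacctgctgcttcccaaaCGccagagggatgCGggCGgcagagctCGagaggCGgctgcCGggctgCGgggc
C19orf21: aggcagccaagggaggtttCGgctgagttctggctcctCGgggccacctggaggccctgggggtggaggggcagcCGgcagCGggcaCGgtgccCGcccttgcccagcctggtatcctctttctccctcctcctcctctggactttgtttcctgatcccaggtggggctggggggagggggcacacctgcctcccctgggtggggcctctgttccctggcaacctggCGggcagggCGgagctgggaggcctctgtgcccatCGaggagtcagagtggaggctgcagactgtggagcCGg
KISS1: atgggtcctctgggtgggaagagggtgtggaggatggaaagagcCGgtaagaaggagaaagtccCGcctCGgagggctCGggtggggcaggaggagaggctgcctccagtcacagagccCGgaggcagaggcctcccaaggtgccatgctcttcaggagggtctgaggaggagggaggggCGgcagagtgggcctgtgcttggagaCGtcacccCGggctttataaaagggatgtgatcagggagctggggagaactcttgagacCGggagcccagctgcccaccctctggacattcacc
SPANXC: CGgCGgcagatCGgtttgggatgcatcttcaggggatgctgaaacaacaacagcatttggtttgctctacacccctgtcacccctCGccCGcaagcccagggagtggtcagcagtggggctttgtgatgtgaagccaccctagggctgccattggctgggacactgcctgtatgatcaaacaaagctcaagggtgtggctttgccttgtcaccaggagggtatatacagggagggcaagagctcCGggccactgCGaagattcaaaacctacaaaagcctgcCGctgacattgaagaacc
SERPINB7: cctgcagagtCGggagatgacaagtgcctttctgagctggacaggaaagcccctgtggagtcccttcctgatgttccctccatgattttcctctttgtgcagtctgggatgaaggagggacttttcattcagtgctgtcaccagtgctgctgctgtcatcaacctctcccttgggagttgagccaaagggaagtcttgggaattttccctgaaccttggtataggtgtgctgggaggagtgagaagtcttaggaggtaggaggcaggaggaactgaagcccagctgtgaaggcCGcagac
They hold 6, 24, 10, 9, 8 and 2 CG pairs in the order printed. RefSeq gave a promoter for 30 of the 52 genes, with a median of 18 CG pairs (0 to 46), against a median of 14 in all 27305 promoters. On either strand, the AP-1 motif TGANTCA was in 2 of the 30 (6.67%), ANKRD1 and SLAMF9, against 7.76% of all. The TEAD motif GGAATG was in 5 (16.7%), against 14% of all, and these were ANKRD1, C10orf10, MME, SLCO1B3 and TM4SF18. The FOXO motif GTAAACA was in C10orf10 only (3.33%), against 3.41% of all. A match describes the letters and shows no binding, and no motif is contained in another.

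Among the coding genes, KRT81, a keratin of the hair shaft, had the most reads. It ran from 351 to 550.2 (median 434) RPM over the 6 Ronly libraries, against 0.129 to 3.88 (median 0.499) over the 8 A375 tumour libraries. Its close relatives KRT86 and KRT83 averaged 1.77 and 0.0978 in Ronly tumours, so few reads were given to them. SERPINB7, a serine protease inhibitor of the epidermis and kidney, ran from 81 to 109 (median 104) in Ronly tumours, against 0.123 to 2.75 (median 0.393) in A375 tumours. CALB1, which encodes the calcium-binding protein calbindin, ran from 74.3 to 139 (median 98) in Ronly tumours, against 0 to 0.297 (median 0.173). Its relative CALB2, which encodes calretinin, ran from 21.1 to 30.0 (median 23.3), against 0.123 to 1.30 (median 0.434). For each of the 4 genes the lowest Ronly library was many times above the highest A375 tumour library, and the A375 tumour libraries were spread widely around a low median.

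Several of the coding genes encode secreted signals or their inhibitors. KISS1, the precursor of kisspeptin, first described as a suppressor of melanoma metastasis, ran from 41.8 to 95.2 (median 54.2) RPM in Ronly tumours, against 0 to 0.50 (median 0.0559) in A375 tumours. APLN ran from 26.7 to 72.2 (median 35.8), against 0 to 0.259 (median 0.185). HHIP, which binds and holds back hedgehog ligands, averaged 19.4, against 0.451, and NOG, which encodes the BMP antagonist noggin, averaged 10.04, against 0.176. At the cell surface, MME, the peptidase neprilysin, ran from 34.7 to 56.3 (median 45.7), against 0.323 to 2.38 (median 0.653), with single A375 tumour libraries above 1. BIK, a BH3-only protein that promotes cell death, ran from 51.1 to 87.3 (median 67.9), against 0 to 1.00 (median 0.708). TM4SF18, SLAMF9 (a SLAM family receptor), S1PR1 (a receptor for sphingosine 1-phosphate) and VSTM1 (an inhibitory receptor of leukocytes) averaged 36, 20.8, 10.8 and 12.4 in Ronly tumours, against 0.586, 0.182, 0.535 and 0.0724 in A375 tumours. These values are single-gene levels and say nothing of the protein.

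Other coding genes belong to muscle, nerve and epithelium. DYSF (dysferlin, for repair of the muscle membrane), SGCZ (a sarcoglycan), ANKRD1 (a cardiac ankyrin repeat protein and known YAP target), MYH16 (a jaw muscle myosin of other primates) and RRAD (a small GTPase of muscle) averaged 15.3, 15.5, 10.7, 16.7 and 13.2 RPM in Ronly tumours. In A375 tumours the same genes averaged 0.566, 0.386, 0.319, 0.456 and 0.469. PTPRN, a protein of dense-core vesicles, and SHISA9, an auxiliary protein of AMPA receptors, averaged 13.3 and 10.7, against 0.994 and 0.0260. AK5, an adenylate kinase of brain, averaged 12.2, against 0.0729. AP1M2, a clathrin adaptor subunit of epithelial cells, and C19orf21, which encodes the spindle and actin protein MISP, averaged 15.2 and 35.6, against 0.417 and 0.350. DMBT1, a glycoprotein of mucosal surfaces, and ABCC9, the sulfonylurea receptor subunit of potassium channels, averaged 11.1 and 10.9, against 0.0505 and 0.0140. The list of 10 skeletal muscle genes, which holds none of the 52, summed to 2.54 to 20.2 RPM in Ronly tumours, against 6.32 to 13.3 in A375 tumours. The lists of 26 neural and 10 keratinocyte genes also hold none of the 52. They summed to 598 to 689 and 90.7 to 111 in Ronly tumours, against 473 to 1518 and 80.3 to 122 in A375 tumours.

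The noncoding genes had high read levels in A375R tumours. LOC100505817 (now LINC02582) ran from 133 to 179.6 (median 153) RPM in Ronly tumours, against 0 to 4.50 (median 0.236) in A375 tumours. UCA1, a long noncoding RNA first found in bladder cancer, ran from 68.4 to 119 (median 95.1), against 0 to 0.625 (median 0.194), and LOC100507127 (now LINC00707) from 69.7 to 118 (median 84.3), against 0.321 to 2.00 (median 0.629). ESRG, a long noncoding RNA of pluripotent stem cells, ran from 51 to 81.7 (median 72.3) in Ronly tumours and was 0 in all 8 A375 tumour libraries and in all 3 A375 vehicle cultures. With 126196044 reads over those 8 libraries, 3 reads is the limit that a count of 0 allows, which is 0.0238 RPM and covers counting error only. SFTA1P, a transcribed pseudogene of the surfactant-associated family, averaged 16.6 in Ronly tumours and had 1 A375 tumour library above 0.

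**Figure D2:**
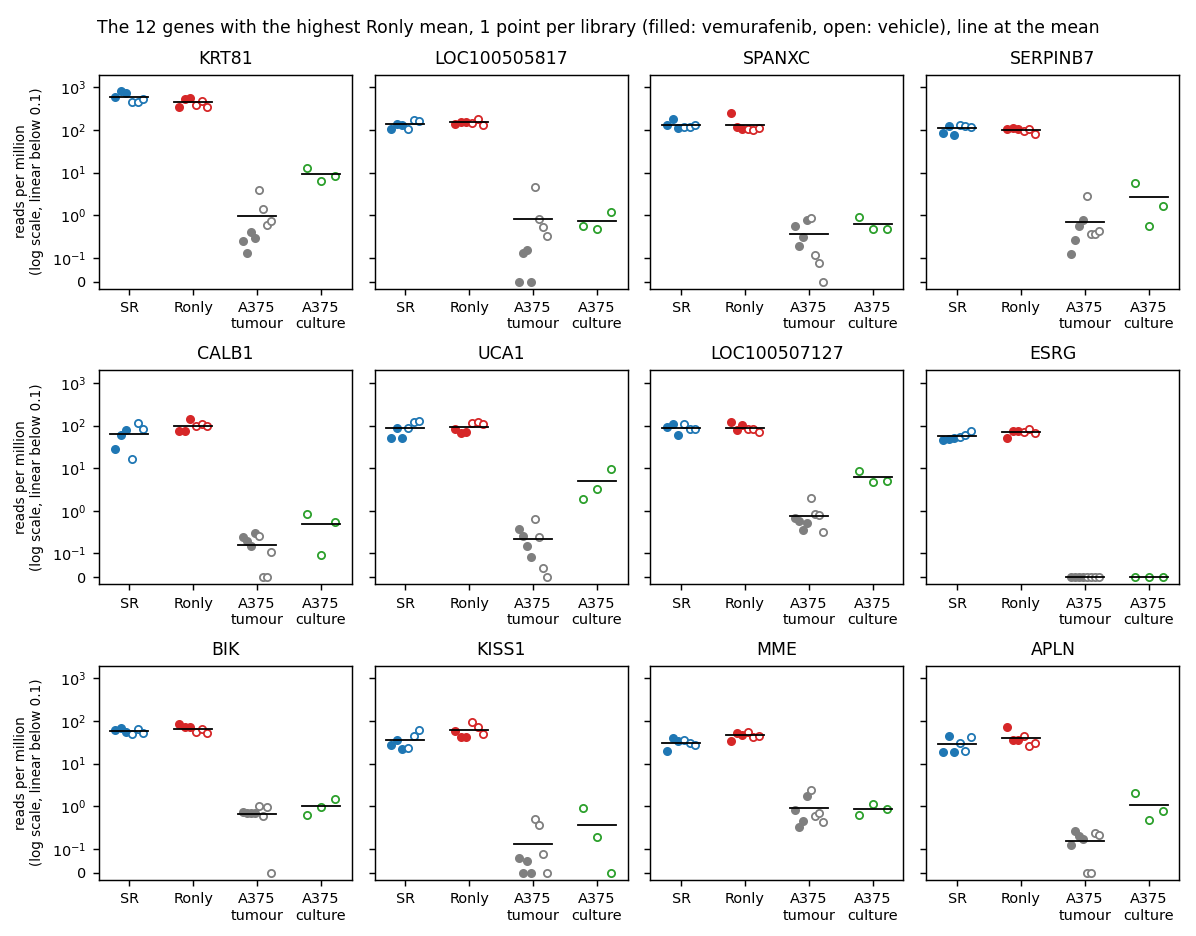
RPM (log axis, linear below 0.1) of the 12 genes with the highest Ronly mean, 1 point per library, filled for vemurafenib and open for vehicle, with lines at the mean of each kind. SR and Ronly points overlap in every panel and lie above all A375 tumour points. All but LOC100505817, MME and ESRG have a higher mean in A375 vehicle culture than in A375 tumours.

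For the genes with copies and those with shared loci, the neighbour or copy was looked at too, because the A375R table lists 21593 symbols and the A375 tumour data 23368 symbols. TAX1BP3 averaged 26.4 RPM in Ronly tumours, against 0.255 in A375 tumours. The joined gene P2RX5-TAX1BP3 showed the reverse, with 1.23 in Ronly tumours, against 56.5 in A375 tumours and 38.6 in A375 vehicle culture. RPL17, whose transcripts can be joined to those of C18orf32, averaged 1543 in Ronly tumours, against 10.4 in A375 tumours, although it encodes a ribosomal protein that all cells need. RNASEK, the neighbour of C17orf49, averaged 37.3, against 1.34. Other joined symbols were close to 0 on both sides: DNAJC25-GNG10 averaged 0.0153, against 0, and CORO7-PAM16 0.0089, against 0. GNG10 (a G protein gamma subunit), MRPS24 (a mitochondrial ribosomal protein) and PAM16 (of the mitochondrial import motor) averaged 32.9, 27.4 and 14.9 in Ronly tumours, against 0.514, 0.245 and 0.679 in A375 tumours. C7orf55 (now FMC1) averaged 15.2, against 0.588, while LUC7L2, with which it can be joined, averaged 57.8, against 76.6. These are genes of general cell functions, low in the A375 and culture tables and not in the A375R table. Of the 9 genes with shared loci, 8 were also under 1 in every culture group of all 4 lines, and their level in A375 vehicle culture had a median of 0.203. Whether the tumour sets were counted against different gene models was not tested.

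Copies behaved in more than 1 way. PGAM4, a retrocopy of the glycolytic gene PGAM1, averaged 26.6 RPM in Ronly tumours, against 0.225 in A375 tumours, while PGAM1 averaged 733, against 73.3. The pseudogene RPS26P11 averaged 31.1, against 0.0662, while its parent RPS26 averaged 548, against 290.2. The HSP90AB1 copy HSP90AB2P averaged 25.6, against 0.342, beside 1349 and 950.1 for HSP90AB1. LOC653566 (now SPCS2P4) averaged 17.6, against 0.709, but 38.6 in A375 vehicle culture, and its parent SPCS2 was at 27.8, 30.9 and 22.3. LOC653653 averaged 17.8, against 0.434, and 16.5 in A375 vehicle culture, and ST13P4 averaged 12.5, against 0.498, and 9.37. CBWD3 averaged 11.7, against 0.407, beside 96.2 and 31.3 for its relative CBWD1. The notes used here do not give how reads that fit both a gene and its copy were handled, and values of these 10 genes are uncertain.

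The X-linked germline genes stand among the copies. SPANXC ran from 98.8 to 245 (median 108) RPM over the Ronly libraries, against 0 to 0.875 (median 0.248) over the A375 tumour libraries, and was under 1 in every culture group. CT45A1 averaged 12.6, against 0.525, and 4.36 in A375 vehicle culture. CT45A3 averaged 16.8 in Ronly tumours and was 0 in every A375 tumour library, while its near copy CT45A5 averaged 32 in Ronly tumours, against 4.31 in A375 tumours and 10.01 in A375 vehicle culture. CT45A1 and CT45A5 thus had reads in A375 cells in culture. The list of 38 cancer-testis genes holds none of the chosen genes. It summed to 1051 to 1370 RPM in Ronly tumours, against 1165 to 1447 in A375 tumours, and these ranges overlapped.

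In SR tumours the genes stayed on. All 6 SR libraries lay above all 8 A375 tumour libraries for each of the 52 genes. The thresholds held the A375 tumour means under 1 RPM, which nearly fixes this for genes read in SR tumours, and its share over all symbols was not computed. The SR mean was at 10 or more for 46 of the 52, beside 99.2% of all symbols that reached 10 in Ronly tumours. The ratio of SR to Ronly means, over both arms, had a median of 0.932 over the 52 genes (0.495 to 1.34), against 1.02 over the 8262 symbols at 10 or more in Ronly tumours. By arm, it was 0.87 (0.421 to 2.54) under vemurafenib, against 0.891 over the same symbols, and 0.988 (0.356 to 1.58) under vehicle, against 1.16. As the rule asked for a high Ronly level, the ratio has no test. The lowest ratios were those of DMBT1 (5.49 in SR tumours, against 11.1 in Ronly tumours), VSTM1 (6.62, against 12.4) and KISS1 (35.6, against 60.3). KRT81 had the highest, at 594 in SR tumours, against 442 in Ronly tumours. By library, KRT81 had 608, 809 and 726 RPM in SR tumours under vemurafenib, and 451, 447 and 522 under vehicle. In Ronly tumours it had 351, 528 and 550.2 under vemurafenib, and 395, 474 and 355 under vehicle. CALB1 was spread widely, with 27.8, 60.4 and 78.7 in SR tumours under vemurafenib and 16.4, 112 and 84.1 under vehicle. In Ronly tumours CALB1 had 74.3, 74.5 and 139 under vemurafenib and 96.8, 106 and 99.2 under vehicle. The SR libraries of KRT81 under vemurafenib lay above all others, and the SR and Ronly libraries of CALB1 overlapped.

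Under vemurafenib, few of the genes were called in A375R tumours. In the main test, though, the shares called and at an unadjusted p under 0.05 were larger than those of all genes. Whether the 52 genes differ from all genes in this was not tested. Within the A375R table, drug and vehicle were compared on the deposited normalised reads with limma on log2(value + 1), the change being drug minus vehicle ± SE, and a gene was called at a Benjamini-Hochberg adjusted p under 0.05 over all genes tested. All 52 passed the filter of a mean of 10 normalised reads. In SR tumours, which the thresholds did not use, 3 of the 52 rose and none fell, against a background of 3.48% of 13755 genes called (1.24% higher and 2.23% lower), and 20 of the 52 were at an unadjusted p under 0.05, beside 20.1% of all genes. In Ronly tumours 1 gene rose and 1 fell, against 0.792% of all genes (0.305% higher and 0.487% lower), and 15 of the 52 were at an unadjusted p under 0.05, beside 18.4% of all genes. The thresholds used the mean of both arms of the Ronly libraries and not their difference. The median change was 0.13 in SR and -0.03 in Ronly tumours, beside 0.01 for all genes in both. Scaling every library to an equal total moves the median of all genes to -0.19 in SR and 0.19 in Ronly tumours, and then 2 of the 52 genes were called higher and 5 lower in SR tumours, beside 0.392% of all genes higher and 8.63% lower. In Ronly tumours that scaling called 3 of the 52 higher and 2 lower, beside 8.34% and 0.646% of all genes. Beside these changes, of the 12 pigment-cell genes 5 were tested, and in SR tumours SOX10 (-2.75 ± 0.52) and EDNRB (-0.97 ± 0.21) fell with a median change of -0.81 over the 5, while in Ronly tumours none was called and the median was -0.16. SR minus Ronly called SOX10 lower (-3.35 ± 0.74) and none of the other pigment-cell genes tested, beside 0.974% of all genes lower. The part of the pigment-cell genes in the changes of the 52 genes was not tested.

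C10orf10 (DEPP1), a target of FOXO factors with a part in autophagy, fell in Ronly tumours and did not pass in SR tumours. In SR tumours its normalised reads were 683, 546 and 1753 under vemurafenib, against 303, 428 and 647 under vehicle, which overlap (log2 change 0.99 ± 0.39, adjusted p = 0.166 by limma). In Ronly tumours it had 264, 511 and 281 under vemurafenib, against 2076, 865 and 1626 under vehicle, and every drug library lay below every vehicle library (log2 change -2.09 ± 0.39, limma's adjusted p = 0.0282). The difference between both responses, SR minus Ronly, was 3.07 ± 0.55 (limma's adjusted p = 0.0201). Its promoter is the 1 among the 30 that holds GTAAACA, a match that shows no binding, and its part in the change was not tested. The fall in Ronly tumours was not called without Ronly vehicle replicate 1 or 3 or without Ronly vemurafenib replicate 1 or 2, and its change then lay between -1.82 and -2.39. The difference between responses was not called without Ronly vehicle replicate 1 or 3 (2.80 and 2.98) or SR vehicle replicate 1 (2.81).

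TMEFF2, a membrane protein with follistatin-like and EGF-like domains, rose in Ronly tumours. In SR tumours it had 300.3, 498 and 307 normalised reads under vemurafenib, against 207, 251 and 236 under vehicle, without overlap, but did not pass (log2 change 0.64 ± 0.18, adjusted p = 0.0635 by limma). In Ronly tumours it had 564, 455 and 469 under vemurafenib, against 304, 311 and 229 under vehicle, also without overlap, and passed (0.82 ± 0.18, limma's adjusted p = 0.0483). The difference between both responses did not pass either (-0.19 ± 0.26). TMEFF2 lost its call in Ronly tumours when any of 7 libraries was left out: Ronly vehicle replicates 1, 2 and 3, Ronly vemurafenib replicates 1 and 2, and SR vehicle replicates 2 and 3. Its change then lay between 0.68 and 0.90.

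The 3 genes that rose in SR tumours were KRT81, C19orf21 and SFTA1P. KRT81 had 20558, 28862 and 26247 normalised reads under vemurafenib, against 12478, 15049 and 16217 under vehicle (log2 change 0.78 ± 0.17, limma's adjusted p = 0.0166). C19orf21 had 1078, 1455 and 1409.9, against 553, 921 and 903 (0.75 ± 0.17, limma's adjusted p = 0.0198). For both, every drug library lay above every vehicle library. SFTA1P had 743, 1261 and 438, against 455, 312 and 322, so the groups overlapped (1.05 ± 0.25, limma's adjusted p = 0.0313). In Ronly tumours the changes of KRT81, C19orf21 and SFTA1P were 0.03 ± 0.17, -0.03 ± 0.17 and 0.26 ± 0.25, and the difference between SR and Ronly did not pass for any of them (adjusted p = 0.0879, 0.0759 and 0.247 by limma). KRT81 and C19orf21 were not called without SR vehicle replicate 1 (0.68 and 0.51) or without SR vemurafenib replicate 2 (0.68 each) or 3 (0.75 and 0.70). SFTA1P lost its call without any SR vehicle replicate or SR vemurafenib replicate 1 or 2 (0.67 to 1.23).

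Between the SR and Ronly responses, 2 of the 52 genes differed, both with the higher change in SR tumours, against 2.89% of all genes (1.91% higher and 0.974% lower). Beside C10orf10 this was CT45A3, with 554, 583 and 596 normalised reads in SR tumours under vemurafenib, against 441, 466 and 486 under vehicle, and 519, 506 and 549 in Ronly tumours under vemurafenib, against 591, 610.1 and 668 under vehicle. Drug and vehicle libraries did not overlap in either kind of tumour and moved in opposite directions (0.32 ± 0.10 in SR and -0.25 ± 0.10 in Ronly, difference 0.56 ± 0.14, limma's adjusted p = 0.0464). Scaled to equal totals, that difference was 0.18 and not called, and 1 gene then lay higher and 5 lower in SR minus Ronly, beside 1.27% of all genes higher and 25.6% lower. CT45A3 also lost its call when any of 9 single libraries was left out (0.51 to 0.60), namely every Ronly vehicle library, SR vehicle replicates 1 and 2, Ronly vemurafenib replicates 1 and 2, and SR vemurafenib replicates 2 and 3. UCA1 had 1678, 3109.9 and 1829.9 normalised reads in SR tumours under vemurafenib, against 2379.5, 4058 and 4039 under vehicle, and 2628, 2166 and 2279 in Ronly tumours under vemurafenib, against 4137, 4186 and 4033 under vehicle. Its groups overlapped in SR tumours and did not in Ronly tumours, and neither change passed (-0.68 ± 0.21 in SR and -0.81 ± 0.21 in Ronly, adjusted p = 0.0774 and 0.0672 by limma). KRT81 is the 1 gene of the 52 that is also in a gene list used here.

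In the gene lists, each count is read beside the 1.24% of all genes that were called higher and 2.23% lower in SR tumours, and 0.305% and 0.487% in Ronly tumours. Of 13 simple and hair keratins, 8 were tested, and KRT81 and KRT80 (0.67 ± 0.15) rose in SR tumours and none was called in Ronly tumours, where SR minus Ronly called none of the 8 either. Of 23 genes of MAPK output, 22 were tested, and SPRY4, SPRED1, EPHA4 and ETV1 fell in SR tumours (-0.81, -0.60, -1.31 and -0.47) and DUSP5 and IER3 in Ronly tumours (-0.66 and -0.54). Of 26 neural genes, 16 were tested, and in SR tumours L1CAM rose (0.48 ± 0.12) and GAP43 and CHGB fell (-2.25 and -1.30), with none called in Ronly tumours. Of 38 cancer-testis genes, 16 were tested, and in SR tumours CTAG2 rose (0.65 ± 0.17) and MAGEA1 and MAGEC2 fell (-2.20 and -1.72), with none called in Ronly tumours. In the MAPK output, neural and cancer-testis lists, SR minus Ronly called DUSP5 higher (0.85) and ETV1 (-0.65), GAP43 (-2.45) and MAGEC2 (-2.78) lower. No other gene of these lists was called there, beside 1.91% of all genes higher and 0.974% lower. The difference between SR and Ronly tumours was not tested for any list as a whole, and the genes were named after their values were seen.

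**Figure D3:**
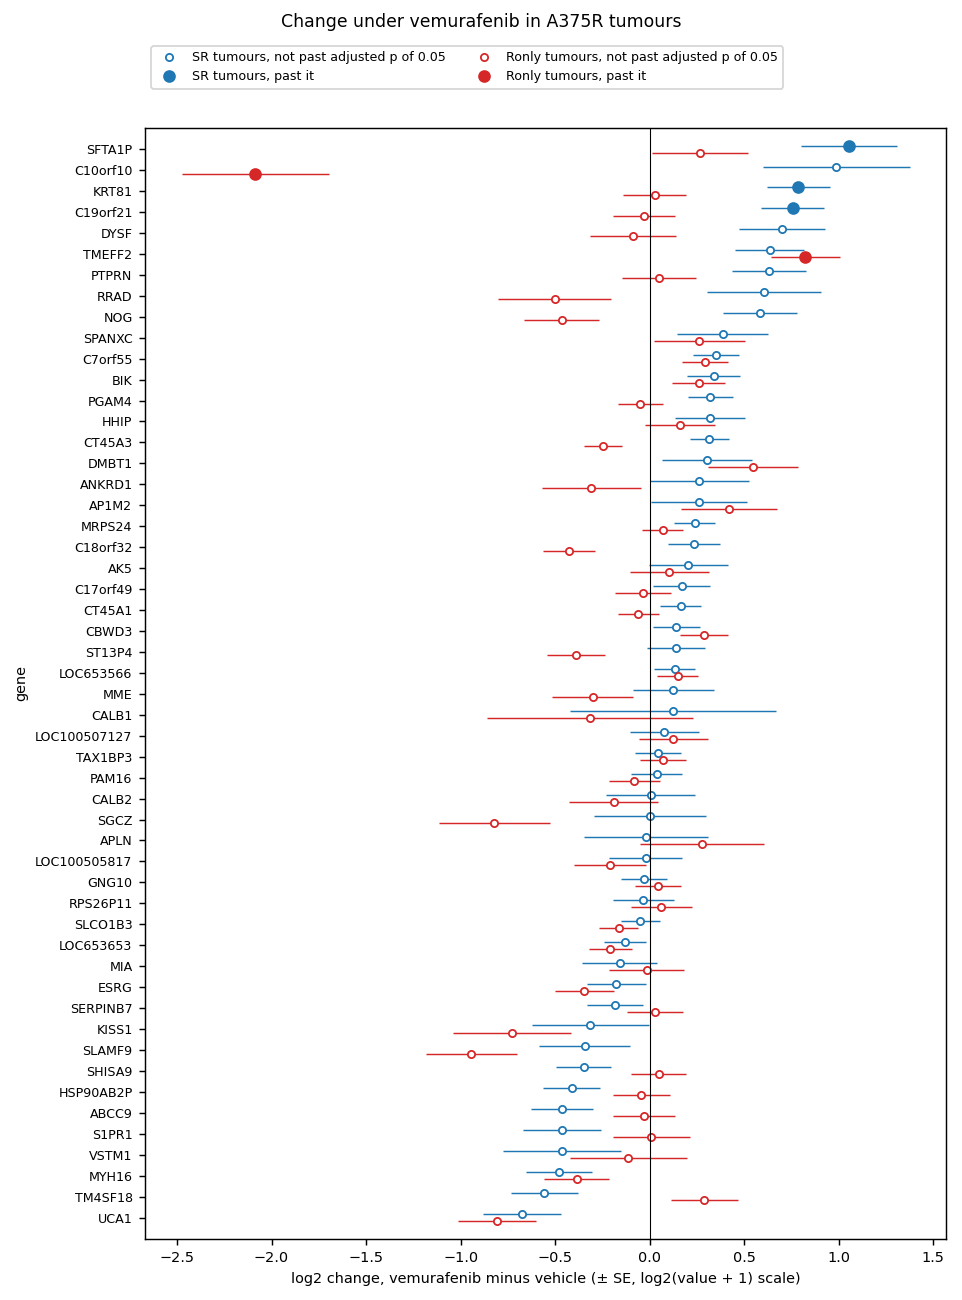
Log2 change under vemurafenib (drug minus vehicle, ± SE) of the 52 genes in SR and Ronly tumours, sorted by the SR change; filled points are past an adjusted p of 0.05. Most changes are small, and C10orf10 lies at 0.99 in SR and -2.09 in Ronly tumours.

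**Figure D4:**
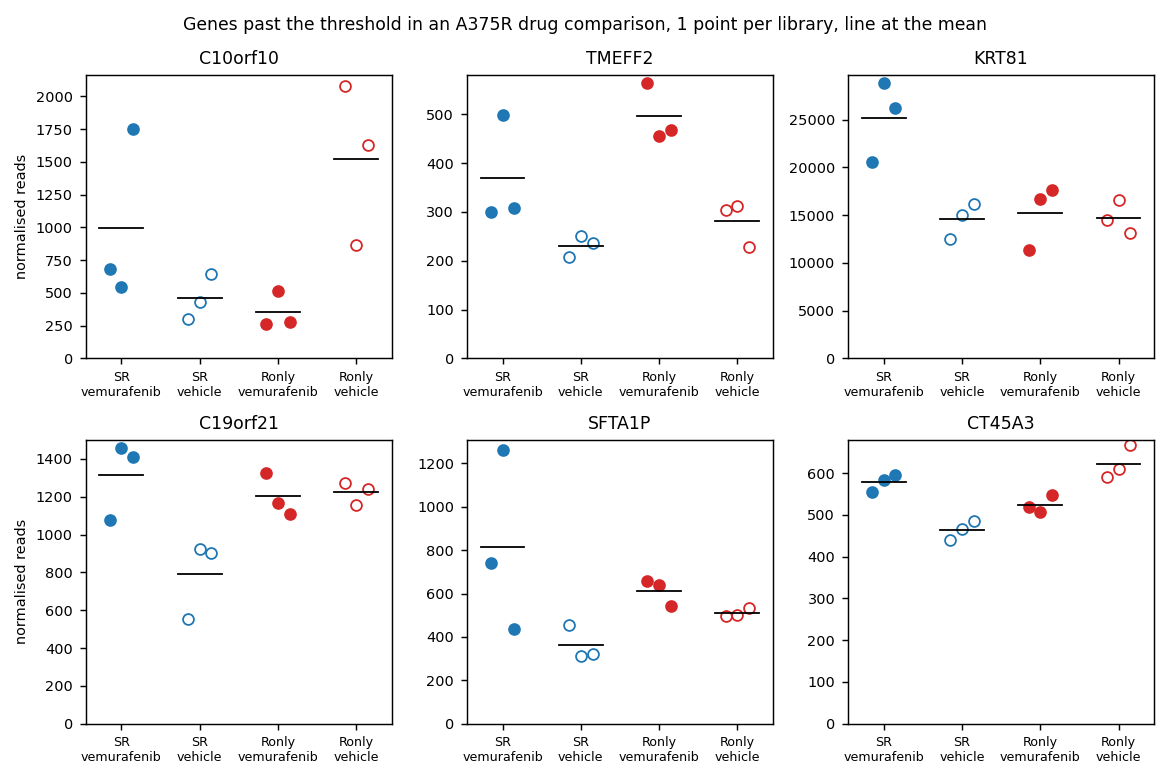
Normalised reads of 6 genes in each library of the 4 A375R groups (n = 3 each), with a line at the mean, filled for vemurafenib and open for vehicle. C10orf10 under vehicle is lower in SR than in Ronly tumours, and KRT81 in SR tumours under vemurafenib lies above all other libraries.

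In A375 tumours the thresholds kept the genes low, so that 11 of the 52 passed the filter, which are those with the highest mean of normalised reads there. Of the 11, 6 passed the test under vemurafenib, where 68.3% of 14069 genes were called (34.2% higher and 34% lower). The thresholds used these libraries and a gene could reach the filter through the arm where it is high, so nothing is read from that count and the values are a description. KRT81 had 4.04, 2.03, 6.28 and 4.50 normalised reads under vemurafenib, against 49.7, 18.8, 7.63 and 10.2 under vehicle. LOC100505817 had 0, 2.03, 2.35 and 0, against 57.7, 11, 6.62 and 4.37, with vehicle replicate 1 far above the rest. MIA, which encodes a secreted protein of melanoma cells and shares its locus with MIA-RAB4B, had 15.1, 16.2, 14.1 and 18, against 6.41, 7.83, 3.05 and 4.37. The arms of KRT81, LOC100505817, MIA and SLCO1B3 did not overlap, while those of PTPRN, also called, did. TMEFF2, the remaining called gene, was lower under vemurafenib (log2 change -1.40), whereas it rose in Ronly tumours, and that difference was not tested. This too is a description of libraries that the thresholds used.

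In culture the genes were low but not uniformly so. In A375 vehicle cultures 32 of the 52 (61.5%) averaged under 1 RPM, 17 lay from 1 to 10 and 3 were at 10 or more. Of all symbols under 1 in A375 tumours, 94.6% were also under 1 in A375 vehicle culture. The 52 genes also had to reach 10 RPM in Ronly tumours, which was not asked of all low symbols. The sets are therefore unlike, and nothing is read from the difference in their shares here or below. Under 1 in all 3 A375 culture groups were 55.8% of the 52 genes. Under 1 in every culture group of the 4 lines were 22 of the 52 (42.3%), against 70.8% of all symbols that were low in A375 tumours. By kind, these were 8 of the 28 single-locus coding genes, 3 of the 5 noncoding genes, 3 of the 10 copies and 8 of the 9 genes with shared loci. The 3 at 10 or more in A375 vehicle culture were the pseudogenes LOC653566 and LOC653653 and the coding gene CALB2. CALB2 had 21.6, 30.0 and 21.1 RPM in Ronly tumours under vehicle, against 19.3, 10.0 and 18.9 in the A375 vehicle cultures, so 2 cultures lay close below the resistant tumours. KRT81 had 13.1, 6.42 and 8.11 and LOC100507127 had 8.47, 4.81 and 5.01 in the same cultures, all above every A375 tumour library. Tumour and culture libraries differ in RNA (ribosome-bound against whole), in medium and in host, which cannot be told apart here.

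Other lines used single genes of the set. H3122 lung cells under crizotinib averaged 155 RPM of AP1M2 and 158 of C19orf21, and under vehicle 141 and 136, levels above those of Ronly tumours. BIK averaged 27 and 30.3 there. In UACC62 cells SLAMF9 averaged 3.77 under vemurafenib and 8.31 under vehicle, and PTPRN 0.781 and 6.11. In Colo800 cells DYSF averaged 7.91 under vemurafenib and 18.8 under vehicle. Of the 10 genes with the highest Ronly mean, LOC100505817, SPANXC, CALB1, ESRG and KISS1 stayed under 1 in every group of all 4 lines.

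After 6 h of vemurafenib, none of the 19 genes that passed the filter in A375 culture was called by limma, against 4.4% of 13816 genes (1.07% higher and 3.33% lower), and none by edgeR or DESeq2 on recovered reads. At an unadjusted p under 0.05 there was 1 of the 19, beside 17.4% of all genes, which was C10orf10 (1.26 ± 0.43, limma's adjusted p = 0.149). Vehicle and 6 h libraries of the same number pair, and with the replicate block C10orf10 was called, with the same change and an SE of 0.28. C10orf10 had 10.5, 34.7 and 32 normalised reads under vehicle, 38.3, 87 and 52.5 at 6 h and 80.2, 103 and 83.9 at 48 h.

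At 48 h, 10 of the 19 were called, 3 higher and 7 lower, where 50% of all genes were called (24.3% higher and 25.6% lower), so the share is near the background. AK5 rose most, with 66.1, 15.2 and 15.1 normalised reads under vehicle, 77.6, 33.8 and 28.5 at 6 h and 307, 420.3 and 329 at 48 h (log2 change 3.75 ± 0.53, limma's adjusted p = 0.000222). C10orf10 (1.91 ± 0.43) and MME (1.65 ± 0.37) rose as well. LOC100507127 and KRT81 fell most. LOC100507127 had 97.6, 55.3 and 59.3 under vehicle, 116, 81.1 and 271 at 6 h and 5.79, 4.13 and 1.10 at 48 h (-4.05 ± 0.51, limma's adjusted p = 0.000109). KRT81 had 151, 73.8 and 96 under vehicle, 104, 54.9 and 60.5 at 6 h and 4.96, 4.13 and 11 at 48 h (-3.85 ± 0.40, limma's adjusted p = 3.11e-05). In both, all 48 h libraries lay far below all others, while at 6 h LOC100507127 had 1 library well above vehicle. CALB2 (-2.28 ± 0.39), CT45A1 (-1.08 ± 0.22), HSP90AB2P (-1.14 ± 0.24) and UCA1 (-2.25 ± 0.81) fell without overlap, and SERPINB7 (-2.02 ± 0.72) fell with overlap. UCA1 was not called without vehicle replicate 2 or 3 or 48 h replicate 1 or 2 (-1.61 to -2.40), nor SERPINB7 without vehicle replicate 1 or 3 or 48 h replicate 1 or 2 (-1.20 to -2.09).

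In Colo800 cells 14 of the 52 genes passed the filter, and 2 rose and 6 fell, where 73.3% of 13451 genes were called (36% higher and 37.3% lower). HHIP had 0 normalised reads in both vemurafenib libraries, against 26.1 and 30.5 in vehicle, at least 9.57-fold lower with 3 reads per drug library as the limit. MME had 3.04 and 6.71, against 37.2 and 42.6 (-2.87 ± 0.37, limma's adjusted p = 1.53e-06), the reverse of its rise in A375 culture, and the difference between lines was not tested. AK5 rose (1.48 ± 0.18), and LOC653653 rose by 0.22 ± 0.06. DYSF (-1.39 ± 0.12), PGAM4 (-1.15 ± 0.19), HSP90AB2P (-0.85 ± 0.19) and APLN (-1.12 ± 0.39) fell. The calls of APLN (without vehicle replicate 2, -0.94, or drug replicate 2, -0.64) and LOC653653 (without drug replicate 1, 0.16) rested on single libraries.

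In UACC62 cells 17 passed the filter, and 3 rose and 6 fell, where 56.5% of 13649 genes were called (26.9% higher and 29.6% lower). SHISA9 had 259 and 363 normalised reads under vemurafenib, against 33.3 and 40.2 under vehicle (3.03 ± 0.20, limma's adjusted p = 4.36e-06), and TM4SF18 had 91.1 and 88.9, against 10.2 and 12.4 (2.90 ± 0.24). LOC653653 had 973 and 1057, against 278 and 296 (1.82 ± 0.11). PTPRN had 10.4 and 7.99, against 74.9 and 81.5 (-2.97 ± 0.26), and C19orf21, HSP90AB2P, SLAMF9, PGAM4 and DYSF fell by between 1.07 and 1.58 on the log2 scale. C19orf21 was not called without vehicle replicate 1 (-1.52). Drug and vehicle libraries did not overlap for any of the 9. With 2 libraries per group a called gene will seldom overlap, and the share over all genes was not computed, so nothing is read from this.

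In H3122 cells under crizotinib 15 passed the filter, and 4 rose and 6 fell, where 46.1% of 13959 genes were called (22.1% higher and 24% lower). MME had 180.2 and 145 normalised reads under crizotinib, against 42.3 and 51.9 under vehicle (1.76 ± 0.18, limma's adjusted p = 1.38e-05), and APLN had 20.1 and 19.5, against 1.97 and 3.91 (2.45 ± 0.46). NOG (1.27 ± 0.36) and ST13P4 (0.40 ± 0.15) also rose. UCA1 had 28.2 and 17.4, against 93.4 and 96.9 (-2.05 ± 0.25), and DYSF (-1.43 ± 0.17), C10orf10 (-1.09 ± 0.19), PGAM4 (-0.90 ± 0.26), HSP90AB2P (-0.57 ± 0.18) and LOC653566 (-0.32 ± 0.10) fell. NOG (without vehicle replicate 1, 0.65), PGAM4 (without vehicle replicate 2, -0.81), LOC653566 (without drug replicate 2, -0.24), ST13P4 (without vehicle replicate 2, 0.31, or drug replicate 2, 0.23) and HSP90AB2P (without any library, -0.51 to -0.63) were not called when a library was left out. Read across the lines, HSP90AB2P was called lower at 48 h in all 4, and DYSF and PGAM4 in Colo800, UACC62 and H3122, in lines with separate vehicle libraries. Per line, 24% to 37.3% of all genes were called lower, and the share called lower in several lines was not computed. HSP90AB2P and PGAM4 are copies, and the drug changes of HSP90AB1 and PGAM1 were not examined.

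**Figure D5:**
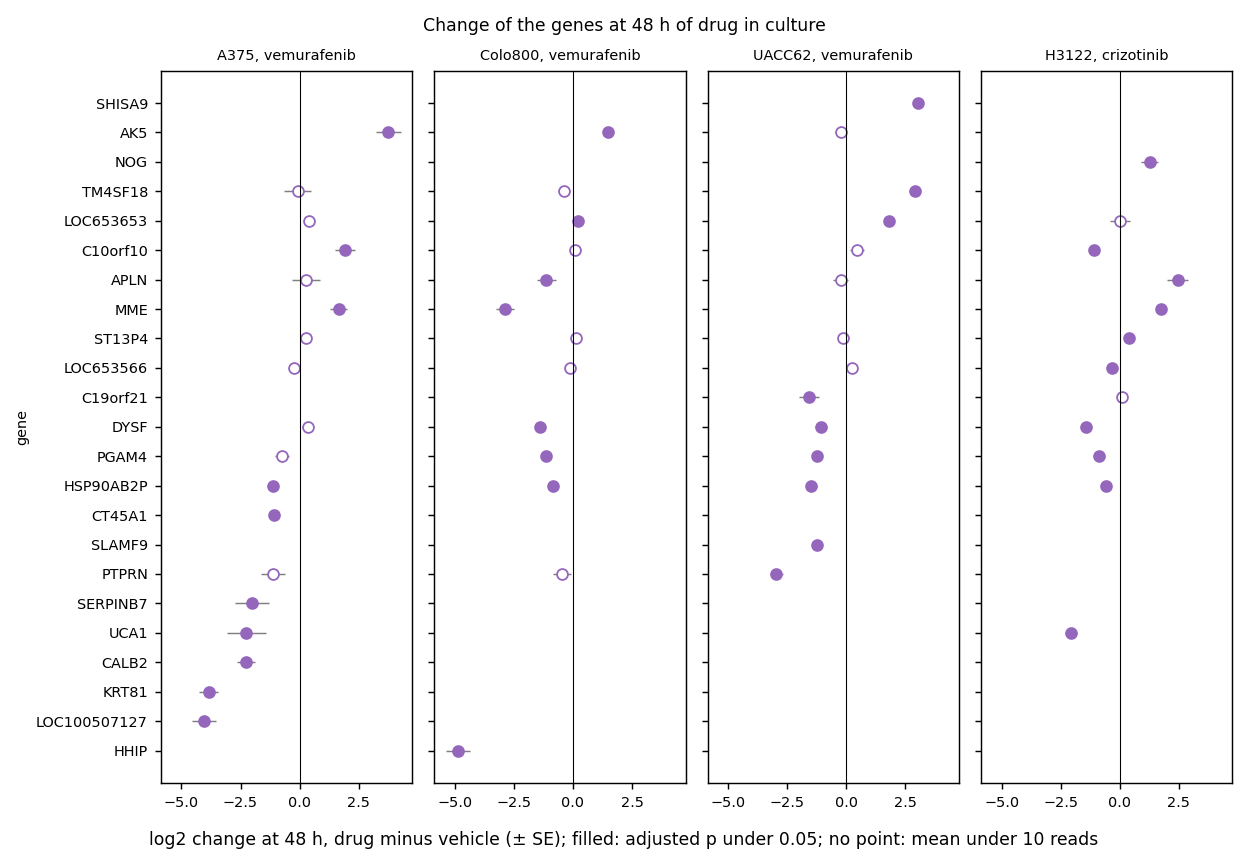
Log2 change at 48 h of drug (drug minus vehicle, ± SE) of the genes called in at least 1 line, in A375, Colo800 and UACC62 (vemurafenib) and H3122 (crizotinib). Filled points are past an adjusted p of 0.05, and a gene without a point had a mean under 10 normalised reads in that table. HSP90AB2P lies below 0 in all 4 panels, and MME lies above 0 in A375 and H3122 and below 0 in Colo800.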

How the data were processed

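Each table holds signal values of 1 line or tumour kind, deposited as normalised counts: reads per gene divided by 1 size factor per library, by the authors. The submitters' processing notes name HTSeq 0.5.4, DESeq 1.18.0 and STAR 2.3.0e, and hg19 beside mm9, without their roles, and the handling of mouse reads is not stated there. The kit is not stranded, per the labels' protocols, so overlapping antisense genes cannot be told apart. The tables were normalised separately, so every test stayed within 1 table, and levels across tables are a description in RPM over shared symbols.

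Tests used limma 3.58.1 (R 4.3.3, trended) on log2(value + 1), with genes at a mean of 10 or more over the table, every group of the table in the fit, two-sided p-values and Benjamini-Hochberg adjustment over all genes tested. Fold changes are on that scale and understate the change of low genes. The step of 1 read was recovered, with 100% of values within 0.1 of a whole read, and on those reads edgeR 4.0.16 and DESeq2 1.42.0 were run as alternatives for the A375R tumours and the A375 cultures. For SR tumours, Ronly tumours, and SR minus Ronly, edgeR called 524, 80 and 435 genes and DESeq2 958, 748 and 887. The limma test was tried on simulated data for drug in SR and Ronly tumours, in A375 culture at 48 h and in Colo800. The other comparisons, edgeR and DESeq2 were not.

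The members and lists were chosen with earlier results of these data known. Named were the 25 members with the highest Ronly mean, up to 5 per direction and comparison by adjusted p, up to 5 with the highest vehicle level in each cultured line, those at the thresholds and members of the fixed lists. Other members were named as examples of a role after their values were seen. Replicate numbers, shared in the titles, paired vehicle and 6 h cultures of A375 (correlations of deviations 0.647, 0.355 and 0.657) and also the 6 h and 48 h cultures (0.487, 0.254 and 0.463), which are not compared here. Vehicle and 48 h cultures correlated at 0.438, -0.0187 and 0.372 by number, so the pairing between them was partial. The main 48 h test ignores replicate numbers. With the block it called 8307 genes, against 6903 without it. The numbers did not pair any other groups. Pseudocounts, filters, scalings, other tools, the replicate block and leaving out each library were the alternatives.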

Additional observations from a re-analysis of the deposited data

Results flagged for a closer look

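The response of C10orf10 to vemurafenib in SR tumours differed from that in Ronly tumours by 3.07 on the log2 scale, and that of CT45A3 by 0.56, both past the test of the difference.

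In groups of 4 A375 tumours, 1 library stood apart from the other 3 in 12 of 104 cases by the gap divided by the range, past the 95% limit of Dixon's test. For continuous values chance gives about 1 in 20, but these levels near 0 move in steps of single reads, 9 of the 104 groups had no range at all and in 4 only 1 library was above 0, which gives a ratio of 1, so 12 is not to be read against 1 in 20. Under vemurafenib these were DMBT1 and SHISA9, each with a ratio of 1, and highest levels of 0.127 and 0.0614 RPM. Under vehicle the ratio was 1 for NOG and SFTA1P (each at most 0.125 RPM). It was 0.894 for AK5, 0.833 for DMBT1, 0.841 for VSTM1 and 0.865 for SPANXC, all 0 in the lowest library. It was 0.879 for LOC100505817 (0.321 to 4.50 RPM), 0.854 for MME (0.428 to 2.38), 0.969 for SERPINB7 (0.355 to 2.75) and 0.931 for LOC653653 (0.237 to 0.428). Vehicle replicate 1, the shallowest library with 8063754 reads, was the highest in 8 of the 10 vehicle cases and in 23 of the 48 members that varied there.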

How the results depend on the processing

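The number of genes chosen was 52 with medians or scaling over all symbols, 48 from vehicle libraries only (43 shared), and 48 to 54 when 1 library was left out. The SR to Ronly ratio ran from 0.926 to 0.949 without 1 library and was 0.898 on the deposited values.

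Of the members called under drug in SR tumours (3), there were 7 with equal totals (a scaling chosen after seeing the data), 1 with the groups alone, 9 by DESeq2, and 1 to 5 when 1 library was left out: 1 without SR vehicle replicate 1 or SR vemurafenib replicate 3, and 5 without SR vemurafenib replicate 1. In Ronly tumours (2), 0 were called with no filter, 1 with quantile normalisation, 5 with equal totals, 4 with the groups compared alone, 1 by edgeR, 4 by DESeq2, and 0 to 3 when 1 library was left out, with 0 without Ronly vehicle replicate 1 or 3 or Ronly vemurafenib replicate 1 or 2, and 1 without SR vehicle replicate 2 or 3. For SR minus Ronly (2) there were 1 with no filter, 6 with equal totals, 7 by DESeq2, and 0 to 6 when 1 library was left out: 0 without Ronly vehicle replicate 1 or 3 or SR vehicle replicate 1, 1 without Ronly vehicle replicate 2 or Ronly vemurafenib replicate 1 or 2, and 6 without SR vemurafenib replicate 1. The cause was not tested. The adjusted p over all alternatives ran from 0.0057 to 0.185 for C10orf10 and from 0.00307 to 0.258 for TMEFF2 in Ronly tumours, from 0.000219 to 0.0963 for KRT81, 0.00124 to 0.088 for C19orf21 and 0.00163 to 0.103 for SFTA1P in SR tumours, and from 0.00172 to 0.0622 for C10orf10 and 0.00908 to 0.361 for CT45A3 in SR minus Ronly. No change of a called member turned its direction under any alternative run.

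In A375 culture at 48 h (10) there were 16 with no filter and 6 with a filter at a mean of 50, which tests fewer genes, and 8 to 11 without 1 library; at 6 h there were 0 without any single library. Colo800 (8) gave 5 with the filter at 50 and 6 to 10 without 1 library, UACC62 (9) 8 to 11 and H3122 (10) 8 to 10. A375 tumours (6) gave 18 with no filter, 0 with the filter at 50, as none of them has that mean, and 4 to 6 without 1 library. Where a group of 2 lost a library, the lone sample is assumed to vary like the other group. UCA1 at 48 h in A375 culture also missed the threshold with a pseudocount of 5.

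With the replicate block, 1 member was called at 6 h, 13 at 48 h in A375 culture, 3 in SR tumours, 3 in Ronly tumours, 5 in SR minus Ronly, 8 in Colo800, 9 in UACC62, 9 in H3122 and 6 in A375 tumours. The block moved the count of all genes to 1462 at 6 h, against 608 without it, and to 298 in Ronly tumours, against 109. In H3122 same-numbered libraries correlated at -0.430, and the crossed pairing called 11 members. Over all genes, no filter gave 14 in Ronly tumours and 185 in SR minus Ronly, and equal totals 1242 in SR, 1238 in Ronly and 3704 in SR minus Ronly, against 478, 109 and 397. DESeq2 called 1045 at 6 h.

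edgeR and DESeq2 were not run on Colo800, UACC62, H3122 or A375 tumours, since in each of these sets 1 library has a size factor within 1% of 1 and its recovered reads could not be checked. Depth limits levels under 1 RPM: in the shallowest A375 tumour library 3 reads are 0.375 RPM. Groups of 2 and 3 libraries, rule-chosen members, copies and shared loci limit the rest.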
